A study of Homo sapiens with 9 samples.

Results

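A2780 is a widely used human cell line derived from an ovarian carcinoma. Its cells were cultured either without drug or with 8 nM DIG-MSK for 24 h, and the comparison of these groups shows which genes and functions changed at the low dose. DIG-MSK is an analogue of mithramycin, an antibiotic that sits in the minor groove where DNA is rich in C and G. The 6 arrays compared, 3 of untreated cells and 3 of cells treated with 8 nM, were chosen by their sample titles out of 9, the other 3 being cells treated with 80 nM for the same time. Both groups were of the same line, so the results describe 1 cell line. Each array was a one-colour Agilent array that received the RNA of 1 independently treated culture. A level is the log2 of the processed spot intensity minus the 75th percentile of its array, so a level of 0 equals that percentile. Of 35010 genes and transcript features on the array, 21237 were tested because a probe was well above background throughout either group, 13866 of them with a gene symbol.

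The tumour suppressor p53 is a transcription factor that is stabilised when DNA is damaged or transcription is blocked. Its targets halt the cell cycle (CDKN1A), feed back on p53 itself (MDM2), repair DNA or promote apoptosis. Growing cells depend on E2F factors, which switch on the genes of S phase, and on SP factors, zinc finger proteins that bind the GC boxes (GGGCGG) of many promoters and whose sites mithramycin compounds can occupy.

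The epithelial keratin genes KRT7, KRT8 and KRT18, together with VIM and CDH2 of mesenchymal-type cells, were well above background on all 6 arrays. By contrast, WT1, CDH1 and MUC16, markers of many ovarian carcinomas, were not above background on any array, and PAX8 was on 4 of 6. Among markers of endothelium, PECAM1 and KDR were not above background on any array, VWF was on 1 and CDH5 on all 6. Of the leukocyte markers, PTPRC, CD14 and CD68 were well above background on all 6 arrays, at levels between -5.02 and -3.60, and CD3E on 3. None of the leukocyte and endothelial markers tested was called, and PTPRC differed by -0.73 with overlapping groups (limma adjusted p = 0.157). All 6 arrays lay on 1 slide, whereas the 80 nM arrays lay on another. On that slide the 3 untreated arrays and 8 nM replicate 1 lay in the same row, and 8 nM replicates 2 and 3 lay in the other row, so the drug can be separated from the row in replicate 1 only. The correlations between the 6 arrays across genes lay between 0.982 and 0.996, and 8 nM replicate 2 had the lowest ones and the fewest probes well above background, 25047 against 26195 to 27214 on the other 5. The part of the slide row and of this array in the results was not tested beyond the values given beside them.

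More genes were called up-regulated than down-regulated at 8 nM DIG-MSK, although the balance depended on the threshold. At an unadjusted p under 0.05 alone, by limma, 2737 of 21237 genes were higher and 3054 lower. The median change over all genes was -0.06. With limma and Benjamini-Hochberg adjustment, 1142 genes (5.38%) were up-regulated and 592 (2.79%) were down-regulated at an adjusted p under 0.05. By the rule of the study's methods, a ratio of 1.5 or more, or of 0.67 or less, together with an unadjusted p under 0.05, 911 (4.29%) were up-regulated and 579 (2.73%) down-regulated. In median size, up-regulated genes moved by 0.71 (log2) and down-regulated genes by 0.56, against 0.17 among the genes not called. Scaled to the spike-in probes, 81.1% of the called genes were up-regulated, against 65.9% with the 75th percentile. When the replicate number was a block in the fit, 774 genes (3.64%) were up-regulated and 302 (1.42%) down-regulated, and 236 of the 592 down-regulated genes kept their call. With the slide row as a block, a fit that rests on 8 nM replicate 1 and was added after seeing the data, 193 (0.909%) were up-regulated and 19 (0.0895%) down-regulated. Leaving out 1 array at a time, 800 of the up-regulated and 553 of the down-regulated genes lost their call at least once.

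**Figure D1:**
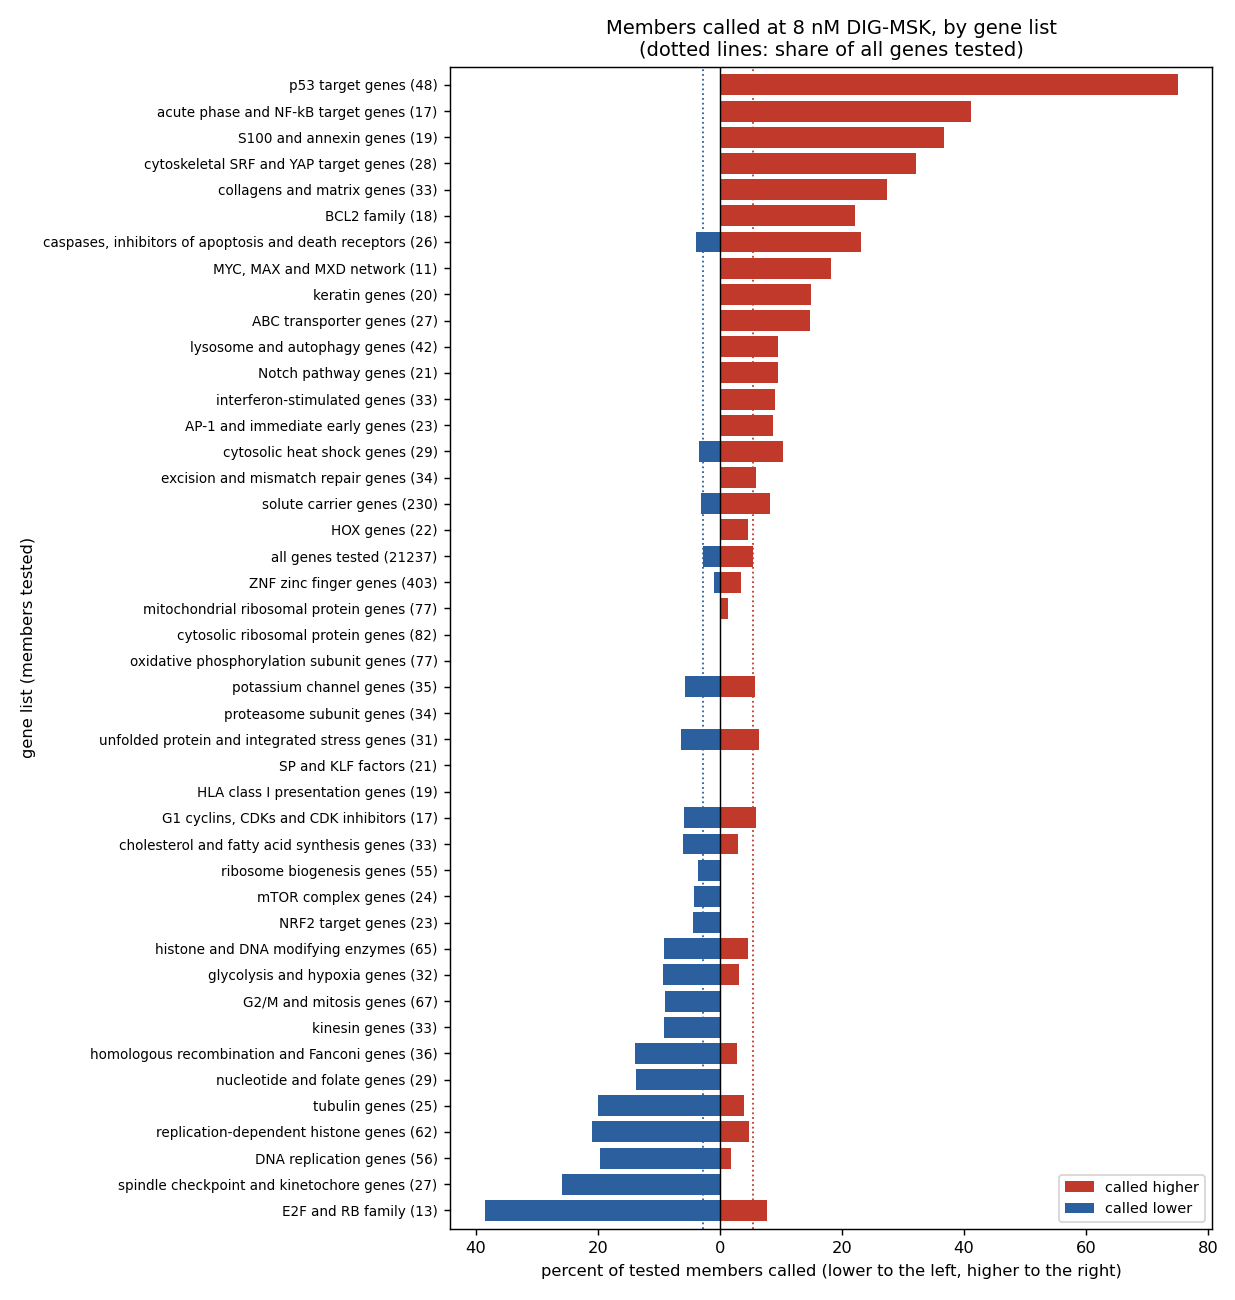
Percent of the tested members of each gene list (number tested in parentheses; lists with at least 10) that were up-regulated (red, to the right) or down-regulated (blue, to the left) at 8 nM, by limma with an adjusted p under 0.05, with the shares over all genes, 5.38% and 2.79%, as dotted lines. The p53 target genes stand at 75% up-regulated, and the E2F and RB family at 38.5% down-regulated. For genes with a symbol, the kind that these lists hold, the 2 shares are 6.92% and 2.89%.

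The promoters of 5 genes on which the account turns are shown as the 300 bases from 250 before to 50 after the RefSeq gene start on GRCh38.p14. CDKN1A and BTG2 are p53 target genes that rose, E2F1 and CLSPN are S phase genes that fell, and MAD1L1 fell most of all ranked genes. Capitals mark the motifs searched, GGGCGG (the GC box), CACGTG (the E box), TGACGTCA (the CRE) and CCAAT, on either strand, so that CCGCCC and ATTGG are also in capitals. The sequences run 5′ to 3′ on the strand of the gene.
CDKN1A (chr6:36678464-36678763, plus strand): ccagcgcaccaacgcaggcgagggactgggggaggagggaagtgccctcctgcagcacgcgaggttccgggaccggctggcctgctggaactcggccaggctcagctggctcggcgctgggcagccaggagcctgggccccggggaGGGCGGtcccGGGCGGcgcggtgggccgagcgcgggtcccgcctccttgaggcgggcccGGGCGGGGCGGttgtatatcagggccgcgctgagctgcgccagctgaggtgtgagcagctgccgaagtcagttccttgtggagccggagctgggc
BTG2 (chr1:203305269-203305568, plus strand): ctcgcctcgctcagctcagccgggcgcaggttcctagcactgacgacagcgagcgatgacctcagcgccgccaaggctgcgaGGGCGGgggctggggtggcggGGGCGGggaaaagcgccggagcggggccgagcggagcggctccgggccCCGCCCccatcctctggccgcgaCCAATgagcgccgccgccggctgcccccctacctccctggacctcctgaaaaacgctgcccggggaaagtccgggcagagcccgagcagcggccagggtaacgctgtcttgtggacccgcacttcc
E2F1 (chr20:33686336-33686635, minus strand): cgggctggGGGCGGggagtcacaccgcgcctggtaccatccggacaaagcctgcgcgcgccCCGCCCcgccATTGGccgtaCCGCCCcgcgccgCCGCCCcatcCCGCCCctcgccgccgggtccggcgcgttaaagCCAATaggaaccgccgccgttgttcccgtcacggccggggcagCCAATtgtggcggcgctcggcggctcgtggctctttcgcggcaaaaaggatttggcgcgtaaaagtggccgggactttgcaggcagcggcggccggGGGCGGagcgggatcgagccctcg
CLSPN (chr1:35769929-35770228, minus strand): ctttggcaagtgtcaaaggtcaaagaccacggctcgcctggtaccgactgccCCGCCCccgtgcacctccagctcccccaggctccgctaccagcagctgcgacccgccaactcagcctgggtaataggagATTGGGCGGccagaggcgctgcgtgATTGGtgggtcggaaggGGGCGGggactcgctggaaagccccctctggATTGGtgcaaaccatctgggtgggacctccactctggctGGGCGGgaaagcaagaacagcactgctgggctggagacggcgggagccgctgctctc
MAD1L1 (chr7:2232896-2233195, minus strand): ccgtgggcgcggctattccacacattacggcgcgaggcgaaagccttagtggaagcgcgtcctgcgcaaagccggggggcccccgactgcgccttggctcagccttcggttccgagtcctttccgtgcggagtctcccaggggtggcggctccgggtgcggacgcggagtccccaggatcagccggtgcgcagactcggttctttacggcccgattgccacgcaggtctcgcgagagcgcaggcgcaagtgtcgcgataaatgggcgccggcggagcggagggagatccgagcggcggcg

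The GC box was found 4 times in the CDKN1A window, 3 times in that of BTG2, 6 times in that of E2F1 and 4 times in that of CLSPN, overlapping copies counted, and the window of MAD1L1 held none of the 4 motifs. Over the whole response the GC box was present in 66.2% of the 745 promoters of up-regulated genes found in the table, 70.3% of the 320 of down-regulated genes, 67.4% of the 11019 of all tested genes and 44.6% of the 27305 in the table. CCAAT was present in 38.9% of the up-regulated, 41.9% of the down-regulated and 37.0% of all tested genes. For the E box the shares were 7.11%, 10.6% and 9.94%, and for the CRE 2.42%, 3.75% and 3.12%. The median GC content of the windows was 64.0% for up-regulated, 67.0% for down-regulated and 64.7% for all tested genes. Among the p53 target genes tested, 35 of 38 windows held a GC box, and among the DNA replication genes 36 of 48. These shares describe letters in a window and were not tested.

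The p53 target genes rose together at the low dose. Of 48 members tested, 36 were up-regulated and 0 down-regulated, against 5.38% and 2.79% of all genes. The median change over the list was 0.88 against -0.06 over all genes. Here and below, the shares over all genes include features without a gene symbol, whereas the lists hold named genes. With a symbol, 6.92% rose and 2.89% fell, a closer yardstick for each list. No member had an unadjusted p under 0.05 with a fall, and 41 had one with a rise. All 36 were well above background on all 6 arrays. CDKN1A (NM_078467), the inhibitor of cyclin-dependent kinases also called p21, had levels of -2.38, -2.33 and -2.21 in untreated cells and -0.33, -0.85 and -0.30 at 8 nM. The groups did not overlap, and the change was 1.82 ± 0.16 on the log2 scale (standard error, n = 3 per group), a rise of 3.53-fold (limma adjusted p = 0.0024). In 8 nM replicate 1, on the row of the untreated arrays, the difference was 1.98. MDM2 (NM_002392), the ubiquitin ligase that degrades p53, stood at -0.37, -0.19 and -0.26 in untreated cells and at 1.08, 1.18 and 1.13 at 8 nM. It rose 2.65-fold (limma adjusted p = 0.00083), and 2 further probes of the gene gave changes of 0.87 or more.

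**Figure D2:**
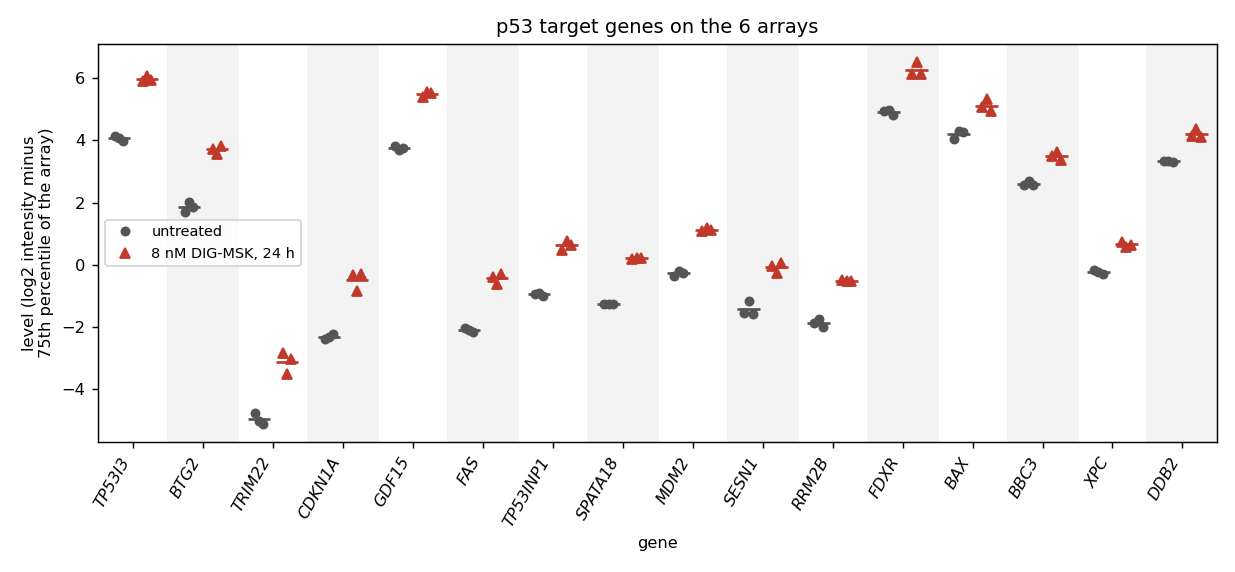
Level (log2 intensity minus the 75th percentile of the array) of 16 p53 target genes on each untreated array (grey circles) and each 8 nM array (red triangles), with group means as bars. For each of these genes the 3 treated arrays lie above the 3 untreated ones, as for TP53I3, which goes from 3.98 to 4.13 up to 5.90 to 6.08; heights of different genes come from different probes and cannot be compared.

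The largest changes in the list were those of TP53I3 (1.91), an oxidoreductase induced before apoptosis, BTG2 (1.86), an antiproliferative factor that recruits the deadenylase, TRIM22 (1.84), GDF15 (1.73), a secreted stress cytokine, FAS (1.66), a death receptor, TP53INP1 (1.59, and 0.94 at a second probe) and SPATA18 (1.47). BTG2 (NM_006763) stood at 1.69, 2.02 and 1.86 in untreated cells and at 3.73, 3.58 and 3.83 at 8 nM. GDF15 (NM_004864) stood at 3.84, 3.71 and 3.75 and rose to 5.39, 5.56 and 5.52. In both genes all treated arrays lay above all untreated ones. Genes of DNA repair and nucleotide supply were among the members. RRM2B, the p53-inducible subunit of ribonucleotide reductase, rose by 1.35 (0.51 at a second probe), GADD45A by 1.16, and the damage-recognition factors XPC and DDB2 by 0.88 each. SESN1, SESN2 and FDXR, which act in redox and growth signalling, rose by 1.35, 0.61 and 1.34. Of the 12 members that did not pass, TNFRSF10C differed by 1.43 (limma adjusted p = 0.0625), CCNG1 by 0.61, APAF1 by 0.47 and PCNA by 0.33, and PMAIP1 (NOXA), PHLDA3, PERP and ACER2 lay between -0.21 and 0.01. With the replicate block 33 of the 36 kept their call, with the slide row block 14 did, and 7 lost it with 1 or another array left out. Over all 48 members the median difference in 8 nM replicate 1 was 0.81.

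Among genes of apoptosis a minority passed the test. Of 18 BCL2 family genes, 4 rose and 0 fell, against 5.38% and 2.79% of all genes, with a median of -0.03 over the family. The 4 were the BH3-only genes BMF (1.05), BBC3 (0.90), also called PUMA, and BIK (0.81), and the pore-forming effector BAX (0.90). BBC3 (NM_014417) had levels of 2.56, 2.70 and 2.56 in untreated cells and 3.51, 3.63 and 3.37 at 8 nM. BAX (NM_138764) had levels of 4.06, 4.29 and 4.28 and then 5.09, 5.32 and 4.94, while its second probe gave 0.37. The antiapoptotic members BCL2, BCL2L1 and MCL1 gave changes of -0.45, 0.07 and 0.23 that did not pass the test, and 4 members had an unadjusted p under 0.05 with a lower level.

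Of 26 caspases, inhibitors of apoptosis and death receptors, 6 rose and 1 fell, against 5.38% and 2.79% of all genes. The median was 0.11. The rises were those of FAS (1.66), BIRC3 (1.06), the decoy receptor TNFRSF10D (0.86), the TRAIL receptor TNFRSF10B (0.45), TNFRSF1A (0.41) and CASP10 (0.40), of which CASP10 had further probes that gave 0.99 and 1.43. FAS (NM_000043) went from -2.03, -2.10 and -2.15 to -0.39, -0.63 and -0.29, and 2 further probes gave 1.64 and 1.81. XIAP (NM_001167), an inhibitor of caspases, fell from 1.34, 1.34 and 1.44 to 0.98, 0.96 and 0.71, a change of -0.49 ± 0.10 (limma adjusted p = 0.0366). That call was lost with the replicate block (limma adjusted p = 0.08), as were those of TNFRSF10B, TNFRSF1A and CASP10. BIRC5, or survivin, had a change of -0.54 that did not pass (limma adjusted p = 0.061), and CASP8 and CASP9 gave changes of -0.09 and 0.17 without passing.

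Genes of cell division were lower by small amounts across most members, and a minority passed the test. Of 67 G2/M and mitosis genes, 64 had a lower mean at 8 nM, 6 were down-regulated (2.79% over all genes) and 0 were up-regulated by limma, with a median of -0.28. At an unadjusted p under 0.05, 39 were lower and 0 higher, against 3054 lower and 2737 higher of all 21237 genes. The 6 were MKI67 (-0.75), the proliferation antigen Ki-67, TACC3 (-0.75) and NUSAP1 (-0.73), which organise spindle microtubules, KIF14 (-0.44), HMMR (-0.42) and GTSE1 (-0.40). MKI67 (NM_002417) stood at 1.86, 1.78 and 1.96 in untreated cells and at 1.16, 0.84 and 1.34 at 8 nM, and 2 further probes gave -0.57 and -0.24. CCNB1, the mitotic cyclin, went from 4.06, 4.09 and 4.01 to 3.72, 3.80 and 3.76, a change of -0.30 that did not pass (limma adjusted p = 0.0659). In both genes the groups did not overlap. With the replicate block MKI67, TACC3 and NUSAP1 kept their call. Fewer cells in a phase of the cycle and less RNA per cell cannot be told apart in RNA from whole cultures.

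Of 27 spindle checkpoint and kinetochore genes, 7 fell and 0 rose by limma, against 2.79% and 5.38% of all genes. The median was -0.27, with 13 lower and 0 higher at an unadjusted p under 0.05. MAD1L1 (NM_003550), the MAD1 protein that recruits MAD2 to unattached kinetochores, had levels of -0.48, -0.53 and -0.44 in untreated cells and -2.46, -2.22 and -2.46 at 8 nM. The change was -1.90 ± 0.10, a fall of 3.72-fold (limma adjusted p = 0.000488), and MAD1L1 was the only member of the list that kept its call with the slide row block and with each array left out. At 80 nM, on the other slide, its mean level was -1.65. The other members that fell were KNL1 (-0.57, and -0.92 at a second probe), the kinetochore scaffold, SPC25 (-0.55), SGO1 (-0.54), which protects cohesion, SKA1 (-0.49), MAD2L1 (-0.47) and AURKB (-0.39), and BUB1 and BUB3 are among the 20 members that did not pass. With the replicate block, 4 of the 7 kept their call.

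**Figure D3:**
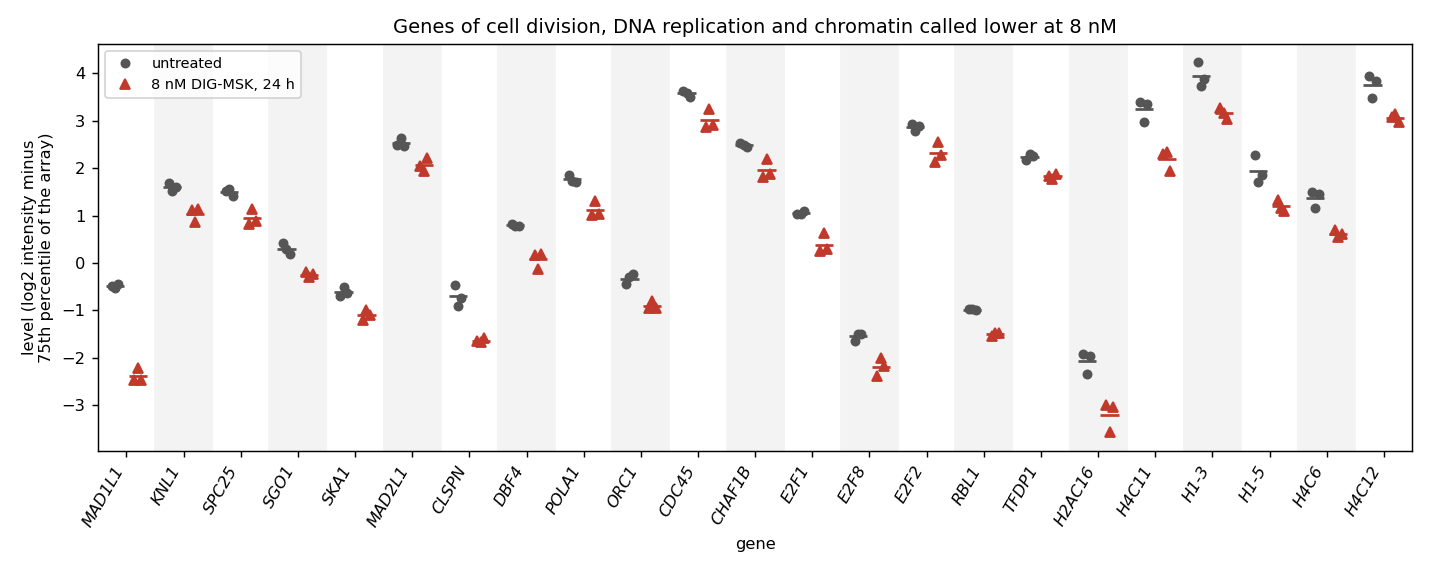
Level (log2 intensity minus the 75th percentile of the array) of 23 down-regulated genes of the spindle checkpoint, DNA replication, E2F and histone lists (up to 6 per list) on each untreated array (grey circles) and each 8 nM array (red triangles), with group means as bars. MAD1L1 shows the widest gap, from about -0.5 to below -2.2, and the other genes fell by 0.41 to 1.13.

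Of 56 DNA replication genes tested, 11 fell and 1 rose, against 2.79% and 5.38% of all genes. A lower mean at 8 nM was found in 51, and the median was -0.32. CLSPN (NM_022111), claspin, which links the replication fork to checkpoint kinase activation, had levels of -0.46, -0.91 and -0.75 in untreated cells and -1.65, -1.67 and -1.59 at 8 nM, a change of -0.93 ± 0.13 (limma adjusted p = 0.0103). It alone of the 11 kept its call with each array left out. DBF4, the activator of the CDC7 kinase, changed by -0.72 (-0.14 at a second probe), POLA1, the catalytic subunit of DNA polymerase alpha, by -0.65, ORC1 of the origin recognition complex by -0.57 and CDC45 of the replicative helicase by -0.56. MCM7, FEN1, RFC2, POLE, CHAF1A and CHAF1B fell by 0.35 to 0.53. With the replicate block 3 of the 11 kept their call (CLSPN, DBF4 and ORC1), and 36 members were lower at an unadjusted p under 0.05. POLD4, the smallest subunit of DNA polymerase delta, rose by 0.62, from 2.83, 2.73 and 2.59 to 3.35, 3.42 and 3.24.

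Homologous recombination and Fanconi genes, which repair double-strand breaks and crosslinks, fell in 5 of 36 cases and rose in 1, against 2.79% and 5.38% of all genes. The median was -0.26. BRIP1, a helicase partner of BRCA1, changed by -0.77, XRCC2 by -0.72, FANCD2 by -0.58, RAD51B by -0.46 and XRCC3 by -0.40, whereas RAD51C rose by 0.38. With the replicate block, BRIP1 and FANCD2 kept their call. FANCD2 had 2 further probes that gave -0.21 and -0.18. In excision and mismatch repair, 2 of 34 genes rose and 0 fell by limma, against 5.38% and 2.79% of all genes. Those that rose were DDB2 and XPC, which are also p53 targets. At an unadjusted p under 0.05, 5 were higher and 1 lower, and the median was 0.03. Of 29 nucleotide and folate genes, 4 fell and 0 rose by limma (7 lower and 0 higher at an unadjusted p under 0.05). They were the folate carrier SLC19A1 (-0.69), DUT (-0.49), which removes dUTP, HPRT1 (-0.46) and MTHFD1L (-0.40, and -0.02 at one of its further probes), of which SLC19A1 kept its call with the replicate block.

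In the E2F and RB family 5 of 13 genes fell and 1 rose, against 2.79% and 5.38% of all genes, with a median of -0.07. E2F1 (NM_005225), the activator of S phase genes, had levels of 1.04, 1.03 and 1.10 in untreated cells and 0.25, 0.63 and 0.29 at 8 nM. Its change was -0.67 ± 0.12 (limma adjusted p = 0.0238) and replicate 2 was the least reduced. E2F8 and E2F2 changed by -0.64 and -0.56, the pocket protein RBL1 by -0.52, and TFDP1, the dimerisation partner of E2F proteins, by -0.41. E2F7, a repressor that p53 also induces, rose by 0.35 at one probe and gave 0.03 at another, and a second probe of TFDP1 gave -0.79. With the replicate block E2F8 and RBL1 kept their call and E2F1 did not (limma adjusted p = 0.0521), and each of the 6 calls was lost with 1 or another array left out. Of 17 G1 cyclins, CDKs and CDK inhibitors, CDKN1A rose and CDC25A, a phosphatase that activates CDK2, fell by 0.41.

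Genes for replication-dependent histones, which are transcribed in S phase, had a median change of -0.49 over 62 members. Of these 13 fell and 3 rose, against 2.79% and 5.38% of all genes. H2AC16 (NM_003511) had levels of -1.91, -2.34 and -1.96 in untreated cells and -2.99, -3.57 and -3.04 at 8 nM. H4C11 (NM_021968) had levels of 3.39, 2.98 and 3.36 and then 2.30, 2.33 and 1.94. These genes fell by 1.13 and 1.05, the linker histone genes H1-3 and H1-5 by 0.79 and 0.75, and H4C6 by 0.75. The members that rose were H2AC19 (0.81), H2BC12 (0.55) and H2AC25 (0.45), and the second probe of H2BC12 gave 0.07. Each of the 16 calls was lost with 1 or another array left out, 11 of the 13 falls kept their call with the replicate block, and the median in 8 nM replicate 1 was -0.32. Histone genes are near-identical in their coding parts, so that a probe may read more than 1 of them, which was not tested.

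Of 65 histone and DNA modifying enzymes, 6 fell (9.23%) and 3 rose (4.62%), against 2.79% and 5.38% of all genes, with a median of -0.03. HDAC4 (NM_006037), a class II histone deacetylase, had levels of -0.89, -0.83 and -0.87 in untreated cells and -1.93, -1.91 and -1.89 at 8 nM. Its change was -1.05 ± 0.08 (limma adjusted p = 0.00122), and a second probe of the gene gave -0.24. Scaled to the spike-in probes it was not called (limma adjusted p = 0.116). HDAC4 kept its call with the slide row block and with each array left out. KDM4B and KDM2A, histone demethylases, changed by -0.78 (-1.24 at a second probe of KDM4B) and -0.54, and EHMT1 and DOT1L, methyltransferases of H3 lysines, by -0.63 and -0.56. EZH1 (0.61), SIRT2 (0.54) and HDAC6 (0.38) rose, and another probe of HDAC6 gave -0.06.

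**Figure D4:**
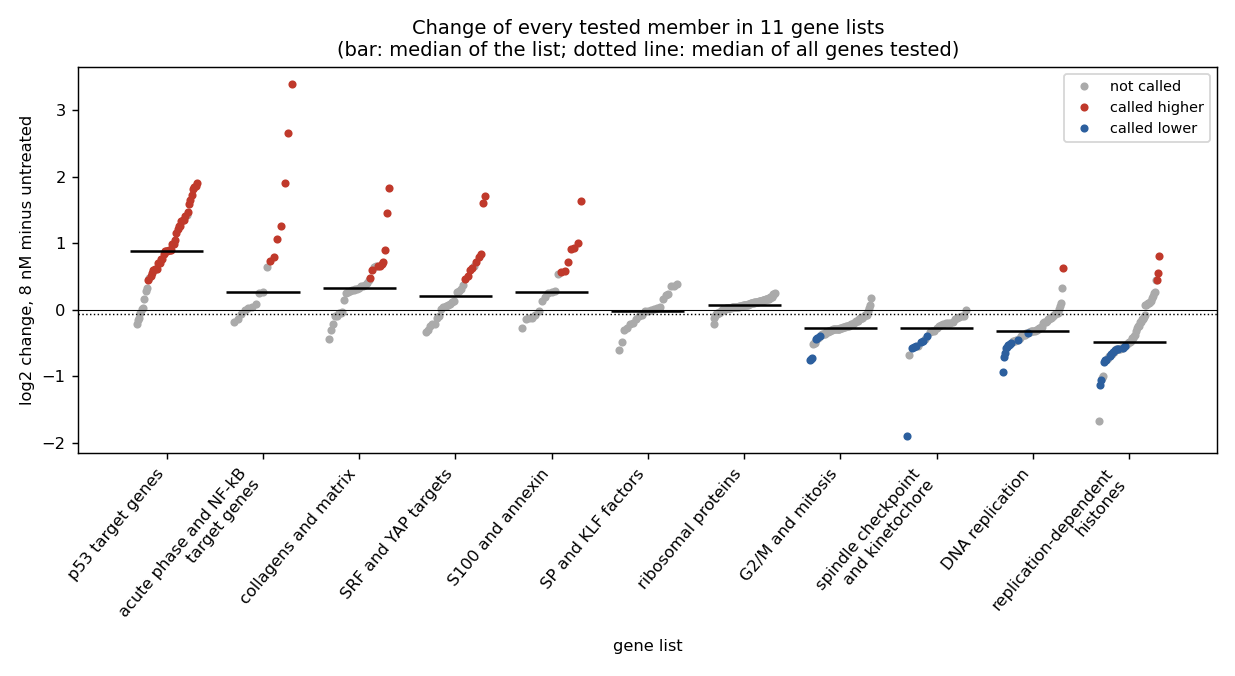
Log2 change (8 nM minus untreated) of every tested member of 11 gene lists, ordered by size within each list, with members up-regulated in red, down-regulated in blue and not called in grey. Black bars give the list medians, from 0.88 for p53 target genes to -0.49 for replication-dependent histones, and the dotted line gives the median of all genes, -0.06.

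Acute phase and NF-kB target genes held the largest rise of all ranked genes. SAA2 (NM_030754), a serum amyloid A protein of the acute phase response, had levels of -5.31, -4.80 and -5.04 in untreated cells and -2.13, -1.39 and -1.46 at 8 nM, a change of 3.39 ± 0.23 or 10.5-fold (limma adjusted p = 0.00094). SAA1 (NM_000331) had levels of -2.80, -2.35 and -2.30 and then -0.16, 0.33 and 0.34, a change of 2.66. In both genes 8 nM replicate 1 was the lowest of the treated arrays, at 2.92 and 2.33 above the untreated mean. SAA1 and SAA2 are near-identical genes, and whether their probes share signal was not tested. A further 15 members of this list on the array were not tested because they were not above background. In all, 7 of 17 tested members rose and 0 fell by limma, against 5.38% and 2.79% of all genes. The median was 0.26, with 7 higher and 0 lower at an unadjusted p under 0.05. The other 5 were the cytokine subunit EBI3 (1.91), the cytokine LIF (1.26), BIRC3 (1.06), complement C3 (0.79) and TNFAIP2 (0.73). EBI3 (NM_005755) went from -3.89, -4.26 and -4.15 to -2.04, -2.34 and -2.20. Members that did not pass included IL32 (0.64), RELA (0.26), RELB (0.26), NFKBIE (0.08) and ICAM1 (0.04). NFKB1 (0.03), NFKBIA (-0.07), REL (-0.14) and CXCL1 (-0.18) did not pass either. LIF and BIRC3 are also in the p53 and apoptosis lists. All 7 kept their call with the replicate block, 4 with the slide row block.

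Of 33 interferon-stimulated genes, 3 rose (9.09%, against 5.38% of all genes and 6.92% of those with a symbol). They were TRIM22 (1.84), ISG20 (1.01), an exonuclease, and HERC5 (0.86), an ISG15 ligase. No member fell by limma, with 0 lower and 5 higher at an unadjusted p under 0.05. TRIM22 is in the p53 list as well. IFIT1, ISG15 and MX1, widely used markers of the interferon response, gave changes of 0.18, 0.06 and -0.06 that did not pass. The median was 0.13 over the 3 arrays and 0.54 in 8 nM replicate 1 alone, set against the mean of all untreated arrays. Arrays of the same replicate number deviated together, and their part in this value was not tested. None of 19 HLA class I presentation genes was called by limma, with 1 higher and 1 lower at an unadjusted p under 0.05.

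Transcription factor families showed single members that rose. HES2 (NM_019089), a repressor of the HES family, went from -4.84, -4.82 and -4.87 to -2.24, -2.12 and -2.10, a change of 2.69 ± 0.08 (limma adjusted p = 0.000277). Of 21 Notch pathway genes, HES2 and the fringe gene RFNG (0.59) rose and 0 fell by limma (4 higher and 2 lower at an unadjusted p under 0.05). For this family and those that follow, the shares over all genes were 5.38% up-regulated and 2.79% down-regulated. Of 11 members of the MYC, MAX and MXD network, MYCL (1.25) and MXD4 (0.71), an antagonist of MYC, rose. MYC itself had levels of 3.32, 3.41 and 3.28 in untreated cells and 3.35, 3.38 and 3.44 at 8 nM (limma adjusted p = 0.707), against a mean of 2.22 at 80 nM. Of 23 AP-1 and immediate early genes, FOSL1 (1.41), a partner of JUN, and IER3 (0.78) rose and 0 fell by limma (6 higher and 1 lower at an unadjusted p under 0.05). FOSL1 went from -3.74, -3.73 and -3.51 to -2.25, -2.30 and -2.19.

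None of the 21 SP and KLF factors tested was called by limma, with 4 higher and 1 lower at an unadjusted p under 0.05. SP1, the factor that binds GC boxes, had levels of 0.86, 0.93 and 0.67 in untreated cells and 0.77, 1.10 and 0.70 at 8 nM, a change of 0.04 ± 0.13. SP3 had levels of 0.80, 0.85 and 0.71 and then 0.60, 0.87 and 0.66, a change of -0.07 ± 0.10. The groups of both genes overlapped. MDK, the growth factor midkine, likewise had overlapping levels of 2.16, 1.82 and 1.88 and then 2.33, 1.82 and 1.96, while its mean at 80 nM was -2.59. Among 403 zinc finger genes of the ZNF series 14 rose and 4 fell, 3.47% and 0.993%, both below the shares over all genes. ZNF750 (1.30), a regulator of epidermal differentiation, and ZNF79 (1.04) rose most.

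Matrix and cytoskeletal genes rose in part. Of 33 collagens and matrix genes, 9 rose and 0 fell by limma, against 5.38% and 2.79% of all genes. The median was 0.33, with 20 higher and 1 lower at an unadjusted p under 0.05. COL9A3 (NM_001853), a chain of collagen IX, went from -3.09, -3.24 and -3.24 to -1.34, -1.40 and -1.34, a change of 1.83 ± 0.09 (limma adjusted p = 0.000488). LOXL4, a lysyl oxidase that crosslinks collagen, rose by 1.46, COL1A1 by 0.90 and the laminin chain LAMB1 by 0.71. Of 28 cytoskeletal SRF and YAP target genes, 9 rose and 0 fell by limma (11 higher and 2 lower at an unadjusted p under 0.05), with a median of 0.20. CCN2 (NM_001901), a matricellular growth factor, went from -4.98, -4.68 and -4.76 to -3.04, -3.42 and -2.85. It rose by 1.70, smooth muscle actin ACTA2 by 0.83 and CCN1 by 0.80. LMOD1, counted among the 9, passed the filter only through the 8 nM arrays, since 1 untreated array was well above background, and its call was lost with any 1 array left out. With 1 or another array left out, 6 of the 9 matrix genes and 6 of the 9 cytoskeletal genes lost their call.

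Of 19 S100 and annexin genes, calcium-binding proteins, 7 rose and 0 fell by limma, against 5.38% and 2.79% of all genes. The median was 0.27, with 8 higher and 1 lower at an unadjusted p under 0.05. ANXA4 (NM_001153) went from -0.35, -0.21 and -0.42 to 1.10, 1.35 and 1.49, and S100A3, ANXA9 and S100A16 rose by 1.00, 0.93 and 0.91. Of 20 keratin genes tested, 3 rose, KRT17, KRT19 (0.90) and KRT222 (0.52), and 0 fell by limma (1 lower at an unadjusted p under 0.05). EPCAM, an epithelial adhesion molecule in the marker list, rose by 0.90, from -3.87, -3.87 and -3.72 to -3.00, -2.79 and -2.97. In the fibroblast markers PDGFRB rose by 0.58 (limma adjusted p = 0.049), and its call was lost with any 1 array left out. COL3A1, with a change of 0.64 (limma adjusted p = 0.0662), and DCN, LUM and THY1 did not pass.

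Ranked among genes well above background on all 6 arrays, the 15 largest rises ran from 3.39 (SAA2) to 2.19 (ZSCAN4). After SAA2, SAA1 and HES2 they included CCDC13 (2.88), a coiled-coil protein of the centrosome, MYBPHL (2.56), a sarcomere protein, PLXNB3 (2.50), a semaphorin receptor, NECTIN4 (2.42), an adhesion molecule, SCN4B (2.35), a sodium channel subunit, and GRHL3 (2.35), a factor of epidermal differentiation. NECTIN4 (NM_030916) stood at -4.24, -4.37 and -4.18 in untreated cells and at -1.85, -1.81 and -1.87 at 8 nM. GRHL3 (NM_198173) stood at -4.02, -3.65 and -3.63 and then at -1.55, -1.46 and -1.23. Groups that do not overlap were a condition of this ranking. INPP5D (NM_001017915), the inositol phosphatase SHIP1, rose by 2.31, from -0.827, -0.997 and -1.05 to 1.35, 1.47 and 1.24, against a mean of -2.85 at 80 nM. HLA-DOA, of the HLA class II pathway, rose by 2.32 at one probe and gave -0.11 at another. DNAI3 (2.25), TRIM64 (2.22), ARC (2.19), an immediate early gene of neurons, and ZSCAN4 (2.19), a gene of cleavage-stage embryos, complete the 15. The 15 rises all kept their call with the replicate block, with the slide row block and with each array left out.

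**Figure D5:**
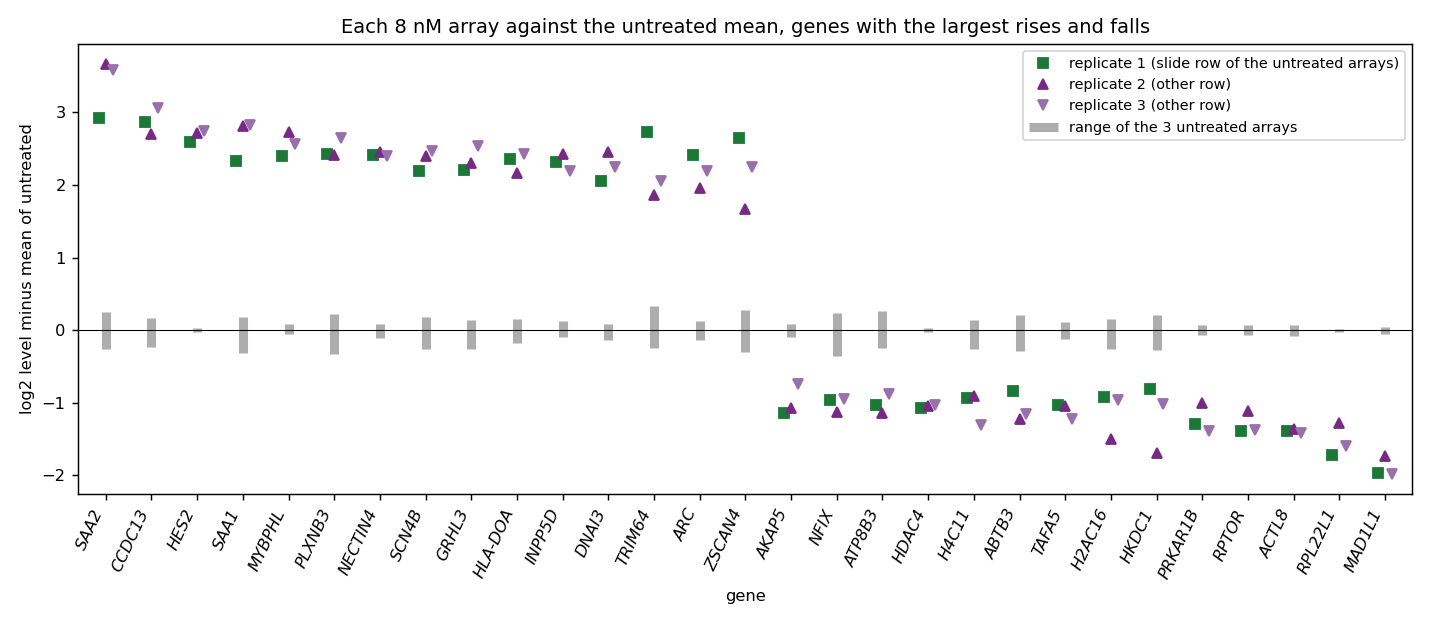
Difference of each 8 nM array from the mean of the 3 untreated arrays (log2) for the 15 largest rises and 14 of the 15 largest falls, with replicate 1 (green squares, same slide row as the untreated arrays), replicates 2 and 3 (purple triangles, other row) and the range of the untreated arrays as grey bars. Genes were chosen with groups that do not overlap, so each array lies beyond the untreated range; replicate 1 ran from 2.92 for SAA2 to -1.97 for MAD1L1.

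The 15 largest falls ran from -1.90 (MAD1L1) to -0.99 (AKAP5). RPL22L1 (NM_001099645), a paralogue of ribosomal protein L22, had levels of 6.36, 6.36 and 6.34 in untreated cells and 4.64, 5.08 and 4.76 at 8 nM, a change of -1.53 ± 0.13 (limma adjusted p = 0.00187). Its mean at 80 nM was 6.11, close to that of untreated cells. RPTOR (NM_020761), the scaffold that brings substrates to mTOR complex 1, went from 1.97, 2.02 and 2.11 to 0.65, 0.93 and 0.66, a fall of 2.44-fold. It was the only one of 24 mTOR complex genes called, which is near the share over all genes (2.79% down-regulated, 5.38% up-regulated). At an unadjusted p under 0.05, 5 of these genes were higher and 6 lower. ACTL8 (-1.39), an actin-like protein of the testis, PRKAR1B (-1.23), a regulatory subunit of protein kinase A, and TAFA5 (-1.10), a secreted brain protein, fell too, and the other probes of ACTL8 and PRKAR1B gave -1.27 and, at 2 probes, -1.25 and -1.02. HKDC1 (-1.17), a hexokinase, ABTB3 (-1.07), ATP8B3 (-1.02), a phospholipid flippase, NFIX (-1.01), a factor of the nuclear factor I family, and the anchoring protein AKAP5 (-0.99) were also among the 15, as were HDAC4, H2AC16 and H4C11. Of the 15, HKDC1 lost its call with the replicate block (limma adjusted p = 0.07), and HKDC1, H2AC16, ABTB3, H4C11, ATP8B3 and NFIX lost it with 1 or another array left out. With the slide row block these genes, TAFA5 and AKAP5 lost their call.

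For some genes only a bound can be given, since no probe was well above background on any array of one group. Such genes passed the filter only through the brighter group and so had to differ, and their values are given as a description. The bound sets the mean of the brighter group against the mean, over the dimmer arrays, of the probe's own signal or, where higher, of the dimmest signal that counted as well above background on that array. KLHL30, a kelch-like protein, was at least 7.94-fold higher at 8 nM, SLC38A8, an amino acid transporter, at least 4.63-fold, SRGAP3 at least 4.01-fold and AVIL, an actin-severing protein, at least 3.92-fold. In the other direction, OR4L1, an olfactory receptor, was at least 10.7-fold lower at 8 nM, but its untreated levels were spread from -5.54 to -2.19. RNF144A, a ubiquitin ligase, was at least 5.25-fold lower, with levels of -5.07, -4.28 and -3.99 in untreated cells. The pseudogene TPTE2P5 was at least 3.82-fold lower. MT1F, a metallothionein, was 3.23-fold lower, a value set by the probe's own signal on the 8 nM arrays. Its untreated levels were -3.80, -4.94 and -5.04, and its call was lost in 5 of the 6 fits with 1 array left out. GPNMB, with a bound of 3.14-fold, did not pass the test (limma adjusted p = 0.144).

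In most lists of the basal machinery few or no genes passed the test. The shares over all genes were 5.38% up-regulated and 2.79% down-regulated. GAPDH, the glycolytic enzyme often used as a reference, had levels of 7.11, 6.95 and 7.02 in untreated cells and 7.05, 7.10 and 6.98 at 8 nM (limma adjusted p = 0.888). None of 82 cytosolic ribosomal protein genes, 77 oxidative phosphorylation subunits and 34 proteasome subunits was called by limma. At an unadjusted p under 0.05 the ribosomal proteins gave 0 in either direction, the oxidative phosphorylation subunits 2 higher and 1 lower, and the proteasome subunits 1 higher and 4 lower. Changes in these lists lay between -0.37 and 0.33. Of 77 mitochondrial ribosomal protein genes, MRPL39 (0.50) alone rose. Of 55 ribosome biogenesis genes, UTP20 (-0.59) and BOP1 (-0.59) fell, near the share over all genes.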

How the data were processed

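RNA of each culture was labelled with 1 dye and hybridised to Agilent arrays of 62976 spots. The deposited scanner files hold spot intensities that the authors obtained with Agilent Feature Extraction 10.7.3.1 (version per the submitters' processing notes), background-subtracted. The authors also deposited a table of normalized log2 values, which was used as an alternative only. The methods describe the replicates as independent experiments.

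From the intensities, log2 of the processed signal minus the 75th percentile of each array over non-control probes was computed. Probes were kept where every array of either group had them well above background (25779 of 42405), and a gene with several probes was read from the one with the highest mean. The groups were compared with limma 3.58.1 in R 4.3.3, with Benjamini-Hochberg adjustment over all 21237 genes. The step was tested on simulated data with independent noise on each array. That simulation held no effect of slide row or of replicate number, so it cannot speak to these. The number of arrays limits the precision.

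The 44 gene lists, the 4 marker lists and the comparison itself were chosen with earlier results of these data known. Named were the 15 largest rises and falls among genes above background on all 6 arrays with groups apart, up to 4 called members per list and direction, a few defining genes, and the 5 largest bounds in each direction. Other members named were chosen after their values were seen, and some genes that this rule names are not reported here. Arrays of the same replicate number deviated together from their group means (correlations across genes of 0.149, 0.128 and 0.176), so the groups were also fitted with that number as a block, the replicate block. Alternatives covered background correction, scaling, filters, probe summaries, the samples fitted and each array left out, and a block for the slide row was added after seeing the data. Promoter sequences came from RefSeq (GRCh38.p14).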

Additional observations from a re-analysis of the deposited data

How the results depend on the processing

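None of the 171 named genes called changed sign under any alternative, and 41 of them kept their call under all. The counts by adjusted p, 1142 higher and 592 lower, became 365 and 85 with spike-in scaling (10 probes), 487 and 114 with no filter on dim probes, 1772 and 1328 with all 9 arrays in the fit, and 193 and 19 with the slide row block. Lower calls became 934 with the authors' log2 values, 921 with a prior that follows intensity, and 302 with the replicate block, under which 124 of the 171 named genes kept their call. Fewer of the 171 kept it with spike-in scaling (59) and with no filter on dim probes (80). The counts by the fold rule, 911 higher and 579 lower, became 451 and 293 under normexp background correction and 601 and 265 from the authors' values, and lower calls became 963 with no filter on dim probes. The causes were not tested. Quantile and median scaling, the filter on all 6 arrays and the mean of a gene's probes left each count within 1.5 times.

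Leaving out 1 array gave 401 to 1338 higher and 64 to 1248 lower by adjusted p, and 900 to 967 and 473 to 1111 by the fold rule. Without untreated replicate 1, 2 or 3 the adjusted counts were 585 and 110, 427 and 78, and 401 and 64, and without 8 nM replicate 1, 2 or 3 they were 702 and 352, 1338 and 1248, and 460 and 86. Without 8 nM replicate 1 the fold rule gave 1111 lower. With 3 arrays a group, sizes near the lowest called change, 0.33, pass only where the arrays agree closely.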

Other observations

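Some transporter, channel and metabolic genes were called. Of 230 solute carrier genes 19 rose (8.26%) and 7 fell (3.04%), against 5.38% and 2.79% of all genes (6.92% and 2.89% with a symbol). Those that rose included SLC52A1 (1.20), a riboflavin transporter, and SLC6A4 (1.06), the serotonin transporter. Of 27 ABC transporter genes 4 rose, among them ABCG4 (1.57), ABCC8 (0.91) and ABCA1 (0.67), the cholesterol exporter, and 0 fell by limma (3 lower at an unadjusted p under 0.05). The second probe of ABCA1 gave 0.08, and its call was lost in 5 of the 6 fits with 1 array left out. Of 35 potassium channel genes tested, KCNN4 (1.78), a calcium-activated channel, and KCNK6 (0.95) rose, and KCNMA1 (-0.76) and KCNK5 (-0.38) fell. The same shares over all genes, 5.38% and 2.79%, stand beside the ABC transporter and potassium channel counts. KCNMA1, the large-conductance calcium-activated channel, stood at -1.52, -1.31 and -1.39 in untreated cells and at -2.35, -2.00 and -2.16 at 8 nM, and 2 further probes gave -1.20 and -0.98.

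Of 32 glycolysis and hypoxia genes 3 fell, the glucose carrier SLC2A1 (-0.61), the hexokinase HK2 (-0.59) and the angiogenic factor VEGFA (-0.50), and P4HA2 (0.48) rose, of which SLC2A1 kept its call with the replicate block. For this list and the tubulin and kinesin genes below, the shares over all genes were 2.79% down-regulated and 5.38% up-regulated. A second probe of VEGFA gave 0.07. Of 25 tubulin genes 5 fell, TUBB2B (-0.93), TUBA4A (-0.88), TUBA1B (-0.44), TUBA1A (-0.44) and TUBB (-0.41), and the pseudogene TUBBP5 (1.02) rose. None of the 5 falls kept its call with the replicate block, and tubulin genes are similar enough that a probe may read more than 1 of them, which was not tested. Of 33 kinesin genes 3 fell, with KIF1A (-0.93), a motor of synaptic vesicles, the furthest.

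Features without a gene symbol were of more than 1 kind. Of 3570 long intergenic non-coding features tested 52 rose and 86 fell, both below the shares over all genes, 5.38% and 2.79%. Their median change was -0.16 and their median level in untreated cells -3.41. Of 13866 genes with a symbol 959 rose and 401 fell, with a median of -0.02 and a median level of -0.25. Of the 3801 other features without a symbol 131 rose and 105 fell, with a median of -0.11. In 8 nM replicate 1, on the slide row of the untreated arrays, the median over the non-coding features was -0.04. The difference between these kinds of feature was not tested.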
